A study of Homo sapiens with 28 samples.

Results

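The genes described here are 10 known transcriptional targets and feedback regulators of WNT and beta-catenin signalling in colorectal cancer (CRC), namely LGR5, ASCL2, AXIN2, RNF43, ZNRF3, NKD1, NOTUM, LEF1, TCF7 and SP5. They were taken from the 62703 genes of the deposited count tables by matching gene identifiers to these symbols in GENCODE, and all 10 were found. The rule used no expression value, although the members were proposed with earlier results of these data known. The study asked what the transcription factor TWIST1, a driver of epithelial-to-mesenchymal transition, controls in CRC cells. RNA-seq covered 24 polyA-selected libraries in 8 groups of 3, with 16567606 to 22217009 counts per library. TWIST1 ChIP-seq added a single peak list for each of the 2 lines, made from WT cells.

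MDST8, a CRC line of the mesenchymal CMS4 subtype, gave 18 libraries. They comprise WT cells and 5 single-cell-derived clones in which TWIST1 was targeted with CRISPR-Cas9, labelled TG1_1, TG2_2, TG3_2, TG3_5 and TG3_6. Each knockout group is therefore a single clone, and the 5 comparisons with WT share the same 3 WT libraries. LoVo, a CRC line outside CMS4, gave 3 libraries labelled shRNA (short hairpin RNA) control and 3 labelled TWIST1 shRNA. A figure legend of the study names wild-type cells as the reference of its LoVo knockdown. Whether the control libraries came from cells carrying a hairpin is therefore not certain. Per the labels, all cells were grown in DMEM with serum. The labels do not say whether replicates were separate cultures, so p-values measure the spread between libraries, which may be technical.

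TWIST1 counts were read first as a check of the labels. WT MDST8 held 845, 1034 and 797 counts of TWIST1, and its log2 fold change in the clones lay between -0.65 (TG2_2) and 0.22 (TG3_2). It was called lower in TG2_2 only, where called means an absolute log2 fold change over 0.58 together with an adjusted p under 0.05. The study checked the loss of the protein in the clones by western blot. In LoVo the counts ran against the labels, with 0 in each control library, against 73, 89 and 93 under the label TWIST1 shRNA. The study also assessed TWIST1 in its LoVo knockdown cells, by qRT-PCR for the mRNA and by western blot for the protein. Neither shows which libraries came from these cells. Every LoVo direction below follows the labels. The library labelled TWIST1 shRNA replicate 1 stood apart from its 2 replicates, with a chi-square per gene of 20.6 and 31.5 against them, where no other pair of replicates exceeded 6. Its mitochondrial genes took 10.9% of counts, against 6.24% and 5.47% in replicates 2 and 3, 3.49% to 3.96% in the libraries labelled shRNA control and 2.38% to 4.37% in MDST8. LoVo changes are therefore also given without it.

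The labelled lines were compared with their markers. Of 12 intestinal epithelial markers, 4 to 8 were at 0 in every library of a given MDST8 group, including CDX1 and GPA33 in all of these groups, and their summed level was 76.8 to 166 TPM (a level per exon length, scaled to a fixed library total). The same list summed to 6760 to 6910 TPM in LoVo libraries labelled shRNA control, with no marker at 0, and to 2540 to 3220 TPM in those labelled TWIST1 shRNA. The 8 mesenchymal markers summed to 4850 to 6570 TPM in MDST8 and to 98.8 to 127 TPM in LoVo.

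In canonical WNT signalling, ligand binding to Frizzled receptors stops the destruction complex from degrading beta-catenin, which enters the nucleus and activates genes through TCF and LEF factors. Many of these targets act back on the pathway. Some remove receptors from the cell surface, some rebuild the destruction complex and some inactivate the ligand, while others mark stem cells at the base of the intestinal crypt. Mutations that activate the pathway are among the most common in CRC, and the level of these genes is widely used as a readout of its activity.

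The members fell into 2 sets by line. In MDST8, ZNRF3, NKD1, AXIN2, LEF1 and TCF7 were expressed, whereas LGR5, ASCL2, RNF43 and NOTUM held 0 to 3 counts in every library and SP5 held 0 to 20. In LoVo all 10 were expressed. Only the 5 expressed members passed the filter on low values in MDST8 (a geometric mean of at least 1 RPM over the libraries of the line, taken with an offset, where RPM are counts scaled to the library total), and all 10 passed it in LoVo. CPM, the unit used below, are counts scaled in the same way with edgeR's TMM factors, within a line. The plot of levels by library shows the same split.

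**Figure D1:**
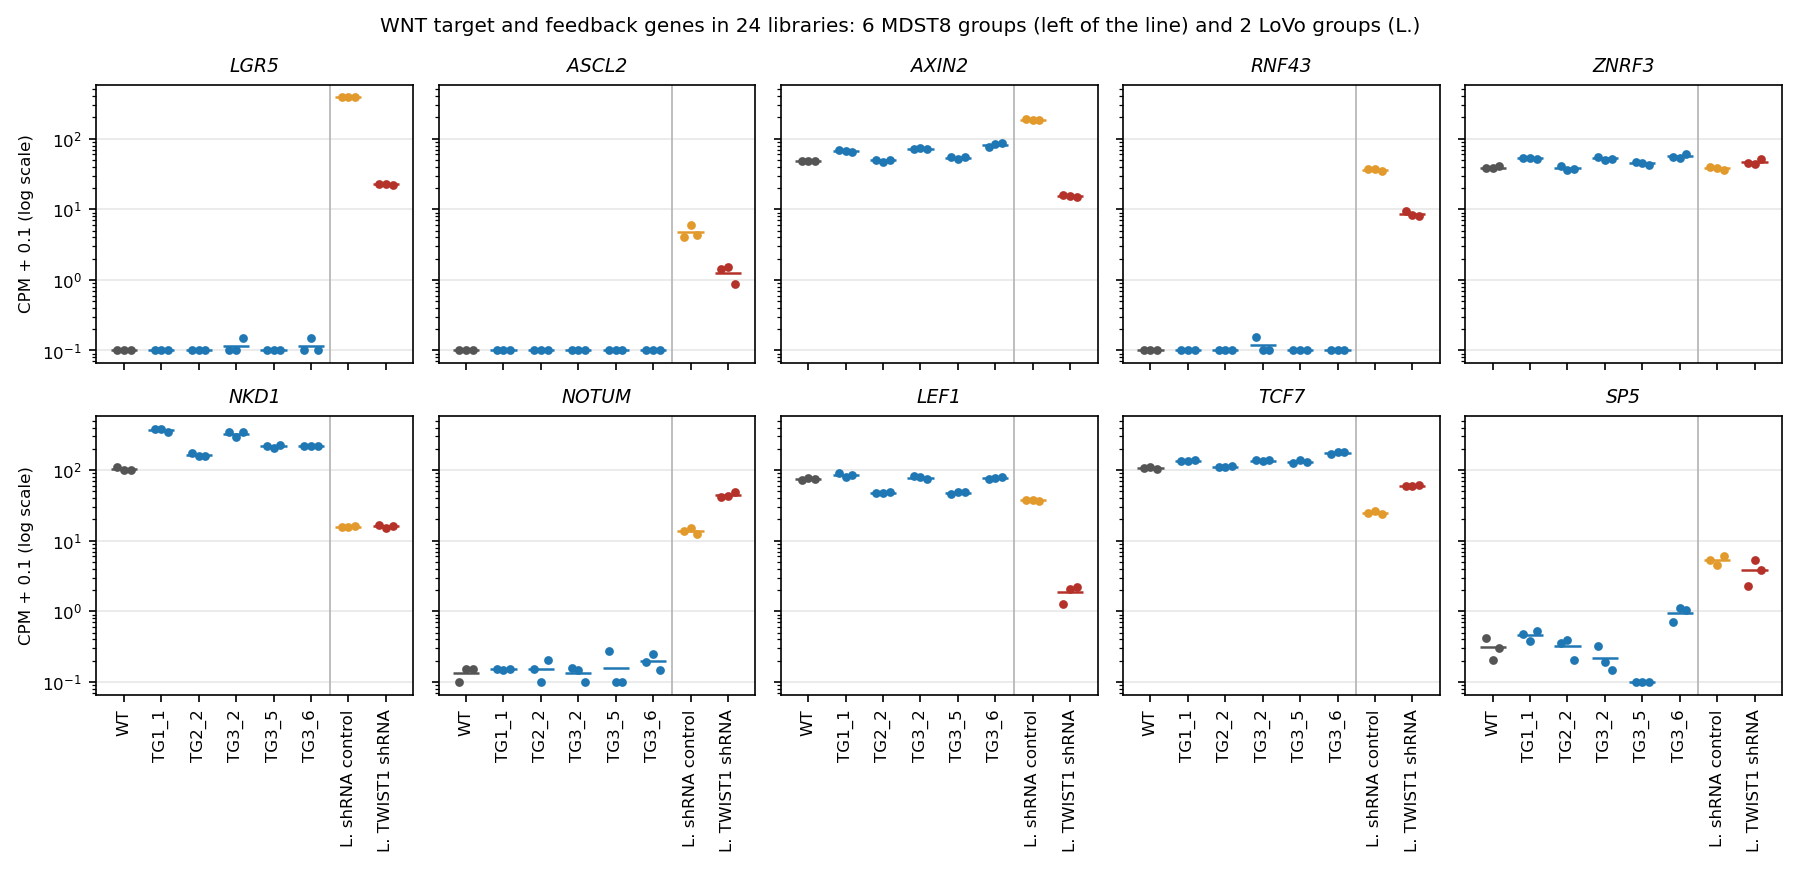
Level of each of the 10 members in each of the 24 libraries, as CPM + 0.1 on a log axis, with 1 point per library and the groups along the horizontal axis. LGR5, ASCL2, RNF43 and NOTUM lie at or near the floor in all MDST8 groups and are higher in both LoVo groups, where ASCL2 is the lowest of them (0.78 to 5.94 CPM). NKD1 is higher in each clone than in WT.

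Between genes, levels were compared as TPM. In WT MDST8, LEF1 had the highest level of the members, 58.2 ± 2.59 TPM (SD, n = 3), followed by TCF7 at 44.2 ± 1.79 and AXIN2 at 38.9 ± 0.15. NKD1 at 25.2 ± 1.38 and ZNRF3 at 23.5 ± 0.65 overlapped, and SP5 was at 0.42 ± 0.22 TPM. In TG1_1 and TG3_2 NKD1 came first, at 88.9 ± 5.16 and 79.3 ± 6.74 TPM. TCF7 came first in TG2_2, TG3_5 and TG3_6, though in TG3_5 its libraries overlapped those of NKD1. Summed over the 10 members, the level was 188 to 194 TPM in WT, 179 to 188 in TG2_2 and 202 to 207 in TG3_5, against 279 to 306 TPM in TG1_1, TG3_2 and TG3_6.

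LoVo had a different order. LGR5 alone made up 51.7% to 52.7% of the summed level of 514 to 525 TPM in libraries labelled shRNA control, at 271.8 ± 0.89 TPM, followed by AXIN2 at 132 TPM and LEF1 at 25.6 TPM. In libraries labelled TWIST1 shRNA the sum was 118 to 151 TPM and NOTUM came first, with 36.6% to 39.9% of it.

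Among the feedback inhibitors tested of the 10 members (NKD1, AXIN2 and ZNRF3), NKD1 had the largest log2 fold change in each clone. It lies at chr16:50548396-50649249 on the plus strand of hg38 and encodes a cytoplasmic protein that binds Dishevelled and dampens WNT signalling. NKD1 was at 111, 102 and 99.3 CPM in WT replicates A, B and C, at 387.7, 378 and 343 CPM in TG1_1, and at 349.9, 295 and 341 CPM in TG3_2. It was at 223, 209 and 229 CPM in TG3_5, at 217, 219 and 219 CPM in TG3_6, and at 173, 159 and 159.8 CPM in TG2_2. Every clone library lay above every WT library, TG1_1 and TG3_2 overlapped each other at the top, and TG3_5 and TG3_6 overlapped below them. NKD1 was called in all 5 clones, with log2 fold changes of 1.83 (TG1_1), 0.66 (TG2_2), 1.66 (TG3_2), 1.08 (TG3_5) and 1.07 (TG3_6), each with a standard error of 0.05. This corresponds to 1.58-fold to 3.56-fold, with adjusted p from 3.54e-25 to 1.68e-12 (edgeR's quasi-likelihood test, Benjamini-Hochberg adjustment over all genes tested).

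AXIN2, at chr17:65528563-65561648 on the minus strand, encodes a scaffold of the destruction complex and is a direct target of beta-catenin. WT libraries held 48.2, 47.8 and 48.1 CPM of AXIN2. TG3_6 held 76.0, 83.0 and 85.9 CPM, TG3_2 held 72.4, 73.4 and 70.9 CPM, and TG1_1 held 69.0, 66.6 and 64.0 CPM. These 3 clones stood in that order without overlap, and TG3_5, at 54.1, 52.0 and 54.5 CPM, lay between them and WT. TG2_2 overlapped WT, at 50.4, 47.4 and 49.3 CPM. AXIN2 was called in TG3_6 (log2 fold change 0.76, standard error 0.05, adjusted p = 5.53e-16 in edgeR) and in TG3_2 (0.59, standard error 0.05, adjusted p = 1.59e-12). The TG3_2 call lay at the threshold, since without MDST8 TG3_2 replicate B the value was 0.576 and AXIN2 was not called. In TG1_1 the log2 fold change was 0.47, in TG3_5 0.16 and in TG2_2 0.03, all under the threshold of 0.58.

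ZNRF3, at chr22:28883572-29057488 on the plus strand, encodes a membrane E3 ubiquitin ligase that removes Frizzled receptors, as its paralog RNF43 does. It was at 38.3, 38.3 and 40.3 CPM in WT, at 55.4, 52.9 and 59.8 CPM in TG3_6, at 53.1, 53.9 and 51.7 CPM in TG1_1 and at 55.8, 49.9 and 51.3 CPM in TG3_2. TG3_5 held 46.9, 45.5 and 42.1 CPM, and TG2_2 held 40.4, 36.1 and 37.4 CPM of ZNRF3. All clones but TG2_2 lay above WT without overlap. No clone passed the fold threshold, with log2 fold changes from -0.04 (TG2_2, adjusted p = 0.6 in edgeR) to 0.52 (TG3_6, adjusted p = 7.15e-10).

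RNF43, at chr17:58353676-58417595 on the minus strand, held 0 counts in 17 of the 18 MDST8 libraries and 1 count in TG3_2 replicate A. NOTUM, at chr17:81952507-81961840 on the minus strand, encodes a secreted esterase that removes the lipid that WNT ligands need, and held 0 to 3 counts in every MDST8 library. At these depths 3 counts, the floor that a count of 0 allows, correspond to 0.135 to 0.174 RPM in MDST8. A change in these genes between the clones and WT was not detectable at this depth.

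The stem cell genes among the members were also near 0 in MDST8. LGR5, at chr12:71439798-71586310 on the plus strand, encodes an R-spondin receptor that marks crypt stem cells, and had 1 count in TG3_2 replicate C, 1 in TG3_6 replicate B and 0 in the other 16 libraries. ASCL2, at chr11:2268498-2270588 on the minus strand, encodes a transcription factor of the same stem cells and was at 0 in all 18.

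Both TCF and LEF family members were expressed in MDST8. TCF7, at chr5:134114681-134151865 on the plus strand, encodes TCF1, a partner of beta-catenin on DNA. Its WT libraries held 106, 109.5 and 102 CPM, and TG3_6 held 170.3, 179 and 178 CPM. TG3_2 (137, 133 and 140 CPM), TG1_1 (136, 134 and 137 CPM) and TG3_5 (125, 138 and 131 CPM) overlapped each other and lay above WT. TG2_2 held 111, 109.5 and 114 CPM and touched the range of WT. TCF7 was called in TG3_6 alone, 1.66-fold (log2 fold change 0.73, standard error 0.04, adjusted p = 6.82e-18 in edgeR), and was at 0.07 to 0.37 in the other 4 clones.

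LEF1, at chr4:108047545-108168956 on the minus strand, encodes the related factor LEF1 and was, of the 5 members tested in MDST8, the only member called lower in a clone. WT libraries held 71.2, 76.7 and 74.3 CPM of LEF1, against 47.6, 47.3 and 48.4 CPM in TG2_2 and 45.4, 49.6 and 48.5 CPM in TG3_5. TG3_2 held 81.2, 78.8 and 74.4 CPM, TG3_6 held 75.5, 78.0 and 79.6 CPM, and TG1_1 held 91.4, 80.8 and 86.5 CPM. TG2_2 and TG3_5 overlapped each other and lay below every other library, while TG1_1 alone lay above WT without overlap. LEF1 fell by 0.63 on the log2 scale in both TG2_2 (adjusted p = 8.01e-13 in edgeR) and TG3_5 (adjusted p = 7.26e-13), with a standard error of 0.05 in each. Its log2 fold change was 0.22, 0.08 and 0.07 in TG1_1, TG3_2 and TG3_6.

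SP5, at chr2:170715337-170718078 on the plus strand, encodes an SP family factor that acts back on TCF and LEF target genes, and its counts were too low for the filter. WT replicates A, B and C held 6, 2 and 4 counts, TG1_1 held 7, 6 and 8, TG2_2 held 5, 6 and 2, and TG3_2 held 4, 2 and 1. TG3_5 held 0 in each library, whereas TG3_6 held 13, 20 and 20 counts. TG3_5 lay below WT and TG3_6 above it without overlap, with an exact two-sided permutation p of 0.1 for each, the smallest that 3 against 3 libraries can give. With edgeR's filterByExpr in place of the RPM filter SP5 was also called lower in TG3_5 and higher in TG3_6, but TG3_6 is the only MDST8 group with 10 or more SP5 counts in its libraries, so SP5 passed that filter through the group where it is high and these calls are no support for a difference.

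RefSeq promoters were found for 4 members (RNF43, LEF1, TCF7 and SP5). That of SP5 is shown because, of these, it alone holds CTTTGAT, a form of the TCF and LEF core motif. Only this form was searched, on both strands, in the window from 250 bases before to 50 after each start. It was present in SP5 only, with its first base at -109 from the start, and 2.62% of 35116 promoters of that length held it. The E-box named by the study, CATCTG, also searched on both strands, was in none of the 4, while 14.7% of all promoters held it. The 250 bases upstream of the SP5 start are chr2:170715087-170715336 (plus strand, GRCh38.p14, RefSeq), with CTTTGAT in capitals.
SP5 promoter: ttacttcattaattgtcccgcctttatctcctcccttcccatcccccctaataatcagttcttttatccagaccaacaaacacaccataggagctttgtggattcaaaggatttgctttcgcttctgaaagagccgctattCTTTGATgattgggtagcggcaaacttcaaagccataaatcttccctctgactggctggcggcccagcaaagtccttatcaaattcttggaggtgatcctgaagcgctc
This match of letters is a description of the window and does not show binding.

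Counted over the members, the clones differed from each other. Of the 5 members tested, 1 was called higher in TG1_1 and 0 lower (12% and 7.49% of all genes tested), 1 higher and 1 lower in TG2_2 (8.05% and 6.64%), and 2 higher and 0 lower in TG3_2 (10.9% and 6.09%). In TG3_5 1 was called higher and 1 lower (11.2% and 7.25%), and in TG3_6 3 were higher and 0 lower (15.3% and 11.7%). The median log2 fold change of the 5 was 0.44, 0.03, 0.42, 0.20 and 0.73 in TG1_1, TG2_2, TG3_2, TG3_5 and TG3_6, beside -0.01 to 0.00 for all genes tested. All 5 differed among the 5 clones by an F test (adjusted p from 1.63e-20 for NKD1 to 4.58e-10 for ZNRF3 in edgeR), and so did 81% of all genes. All 5 also differed among TG3_2, TG3_5 and TG3_6, which share the label TG3, as did 68.3% of all genes.

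**Figure D2:**
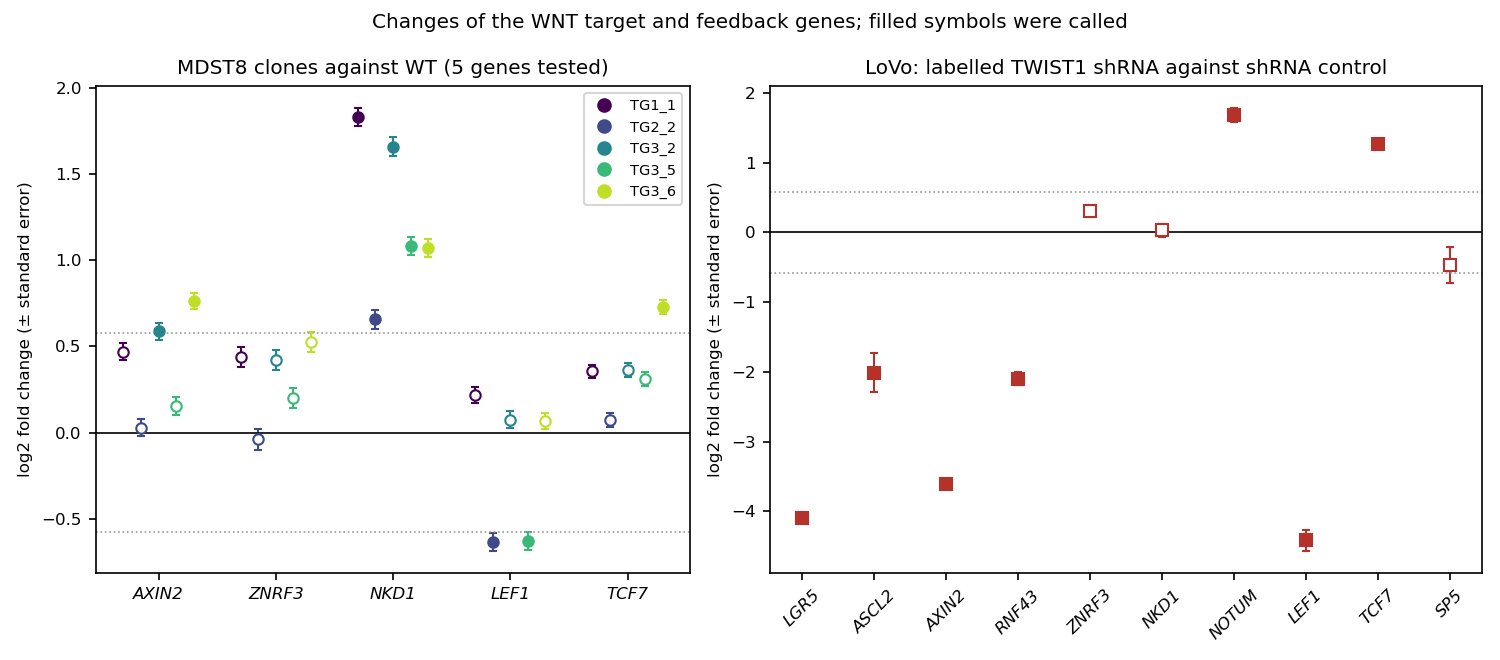
Log2 fold change of each member with its standard error as the bar, for the 5 clones against WT and for LoVo libraries labelled TWIST1 shRNA against shRNA control, with called values as filled points. NKD1 is filled in all 5 clones (0.66 to 1.83) and lies at 0.03 in LoVo, while LEF1, LGR5 and AXIN2 lie at -4.42, -4.09 and -3.60 in LoVo.

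Over the 18 MDST8 libraries, which form clusters by group and share WT, log2 CPM of AXIN2 and ZNRF3 had a Pearson r of 0.932, AXIN2 and TCF7 of 0.899, and ZNRF3 and TCF7 of 0.852. LEF1 was least like NKD1 (r = 0.343) and TCF7 (r = 0.389). Of all protein-coding genes tested, the pattern of NKD1 was most like MALT1 (r = 0.984), RIPK4 (0.982) and SH3PXD2A (0.981). Those most like LEF1 were POLR2B (0.974), TMEM184C (0.973) and NFKB1 (0.967), and those most like TCF7 were SH2B3 (0.988), CTSB (0.985) and CHST11 (0.984). ZCCHC14 ranked first for both AXIN2 (r = 0.975) and ZNRF3 (r = 0.963). These values are descriptions of 18 libraries in 6 groups.

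In LoVo, the libraries labelled TWIST1 shRNA had much lower levels of the stem cell genes and of LEF1, AXIN2 and RNF43, and higher levels of NOTUM and TCF7. Of the 10 members tested, 2 were called higher, beside 26.6% of all genes tested, and 5 lower, beside 26.1%. The median log2 fold change of the 10 was -1.24, against 0.01 over all genes tested.

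LGR5 was at 384, 387 and 384 CPM in LoVo libraries labelled shRNA control, against 22.5, 23.1 and 22.2 CPM under the label TWIST1 shRNA. This is 17.1-fold lower (log2 fold change -4.09, standard error 0.06, adjusted p = 1.78e-17 in edgeR). ASCL2 was at 3.94, 5.94 and 4.21 CPM against 1.31, 1.40 and 0.78 CPM, 4.05-fold lower (log2 fold change -2.02, standard error 0.28, adjusted p = 5.3e-06). For both genes the groups did not overlap. In these bulk libraries, fewer cells of a type and less RNA per cell cannot be told apart.

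The intracellular and membrane feedback genes split. AXIN2 was at 191, 183 and 185 CPM under the label shRNA control, against 15.9, 15.2 and 14.8 CPM under TWIST1 shRNA (log2 fold change -3.60, standard error 0.07, adjusted p = 6.59e-17 in edgeR). RNF43 was at 37.6, 37.1 and 34.6 CPM against 9.31, 8.11 and 8.05 CPM, 4.28-fold lower (log2 fold change -2.10, standard error 0.10, adjusted p = 5.28e-12). Its paralog ZNRF3 was at 39.1, 38.6 and 35.7 CPM against 44.9, 44.01 and 51.1 CPM. The ZNRF3 groups did not overlap, but the change (log2 fold change 0.31, standard error 0.08, adjusted p = 0.00192) was under the fold threshold. NKD1 overlapped between the labels, at 15.6, 15.3 and 15.96 CPM against 16.7, 14.9 and 15.99 CPM (log2 fold change 0.03, standard error 0.10, adjusted p = 0.811).

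The secreted inhibitor NOTUM was called higher. It was at 13.8, 15.2 and 12.3 CPM under the label shRNA control, against 41.0, 43.02 and 49.0 CPM under TWIST1 shRNA, 3.21-fold higher (log2 fold change 1.68, standard error 0.10, adjusted p = 1.17e-10 in edgeR).

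LEF1 and TCF7 moved in opposite directions in LoVo. LEF1 was at 38.0, 37.5 and 36.2 CPM under the label shRNA control, against 1.15, 1.99 and 2.11 CPM under TWIST1 shRNA, 21.4-fold lower (log2 fold change -4.42, standard error 0.15, adjusted p = 6.81e-14 in edgeR). TCF7 was at 24.6, 26.3 and 24.1 CPM against 59.1, 59.9 and 61.3 CPM, 2.4-fold higher (log2 fold change 1.27, standard error 0.07, adjusted p = 6.41e-11). Neither gene overlapped between the labels. SP5 did overlap, at 5.15, 4.36 and 6.01 CPM against 2.197, 5.31 and 3.78 CPM (log2 fold change -0.47, standard error 0.26, adjusted p = 0.115).

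Without the library labelled TWIST1 shRNA replicate 1, the same 7 members were called in LoVo. Their log2 fold changes were then -4.06 for LGR5, -4.15 for LEF1, -3.60 for AXIN2, -2.14 for RNF43, -2.08 for ASCL2, 1.77 for NOTUM and 1.31 for TCF7. SP5 depended on single libraries, with a log2 fold change of -0.15 without replicate 1 and of -0.78, then called, without replicate 2. The epithelial markers moved with the labels too: 11 of the 12 were called lower in libraries labelled TWIST1 shRNA, beside 26.1% of all genes tested. Among them were CDX2 (-3.04), the intestinal master transcription factor, VIL1 (-4.28) and KRT20 (-4.25). The median log2 fold change of the 12 was -3.15. Of 4 mesenchymal markers tested, AXL was higher (3.49) and VIM (-3.22), ZEB1 (-1.10) and FN1 (-0.93) were lower. The part of these shifts and of the mitochondrial share in the members' changes was not tested.

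Counting affects some of these levels. Fragments were counted without regard to strand, and by the default of the counting tool a fragment that overlaps exons of more than 1 gene is not counted. In GENCODE, 68.35% of the exon bases of RNF43 are shared with an annotated gene on the same strand (ENSG00000285897), and 25.32% of those of AXIN2 with ENSG00000266076, so that the levels of both are uncertain and may be understated. The shares for LEF1 (5.2%, LEF1-AS1), NOTUM (5.08%), LGR5 (3.98%), TCF7 (2.08%, SKP1) and NKD1 (0.39%) involve genes on the opposite strand.

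The lines themselves were compared through LoVo libraries labelled shRNA control and WT MDST8, in which line, culture and library preparation cannot be told apart. AXIN2 was higher in LoVo by a log2 fold change of 2.05 (standard error 0.05), whereas NKD1 (-2.64), TCF7 (-1.99) and LEF1 (-0.90) were lower and ZNRF3 was at 0.05 (adjusted p = 0.446 in edgeR). For the genes at 0 in WT MDST8, taken against a floor of 3 counts per library, LGR5 was at least 2375-fold higher in LoVo, RNF43 at least 224.5-fold and ASCL2 at least 29.0-fold. NOTUM, with 2 counts over the WT libraries, had a ratio of 382 (95% interval 106 to 3155), and SP5, with 12 counts, a ratio of 23.9 (13.7 to 46.3). Floors and intervals cover counting error only. Of the 8 members in the fit of all 24 libraries, 4 were called higher in LoVo (30.6% of all genes tested) and 3 lower (34%). LGR5, RNF43 and NOTUM passed the filter there only through LoVo, so these counts are no support for a difference.

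The effect under the LoVo labels was also tested against the mean effect of the 5 MDST8 clones. The difference could be estimated for 6 members, and 4 of them differed, beside 73.6% of all genes tested. It was -4.26 for LEF1, -4.03 for AXIN2, -1.26 for NKD1 and 0.87 for TCF7 on the log2 scale (adjusted p from 6.59e-32 to 2.38e-13 in edgeR). For ZNRF3 it was -0.03 (standard error 0.08, adjusted p = 0.783) and for NOTUM 1.11 (standard error 1.34, adjusted p = 0.472).

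Other genes of the pathway were read from 7 lists. Over all genes tested, 12%, 8.05%, 10.9%, 11.2% and 15.3% were called higher in TG1_1, TG2_2, TG3_2, TG3_5 and TG3_6. Called lower in these clones were 7.49%, 6.64%, 6.09%, 7.25% and 11.7%. In LoVo the shares were 26.6% higher and 26.1% lower. Counts near these shares are no result about a list. In the destruction complex, 13 genes were tested in each line. APC2, an APC paralog, was called higher in TG1_1, TG3_2, TG3_5 and TG3_6 (log2 fold changes 1.43, 1.08, 1.17 and 1.08) and was the only gene of the list called in any clone. It was at 25.8 to 29.4 CPM in WT and at 53.9 to 76.7 CPM in these 4 clones. In LoVo, GSK3B was higher (0.68), and the scaffolds AXIN1 (-1.12) and AMER1 (-1.57) were lower.

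Among TCF partners and coactivators, 3, 1, 3, 1 and 5 of 12 genes tested were higher in TG1_1, TG2_2, TG3_2, TG3_5 and TG3_6, and 0, 0, 1, 0 and 1 were lower. The corepressor TLE2 was called higher in the 4 clones other than TG2_2, from 10 to 16 counts in WT to 31 to 102, with log2 fold changes of 2.29, 2.15, 1.77 and 2.83. TLE2 was at 0.62 CPM in WT and 0.85 CPM in TG2_2 and passed the filter through the clones where it was high. Its calls are therefore no support for a difference. CTNNBIP1, which blocks the binding of beta-catenin to TCF factors, was higher in TG2_2 (0.59) and TG3_6 (1.25). In LoVo 5 of 13 were higher, with BCL9L at 1.89, and 3 were lower, with the corepressor TLE4 at -5.44 (255 to 333 counts against 6 to 7). TLE4 was at 0.35 CPM under the label TWIST1 shRNA and passed the filter only through libraries labelled shRNA control. The TLE4 call is therefore no support for a difference.

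Of 17 receptor genes tested in MDST8, 4, 3, 3, 4 and 4 were higher in the clones in the same order, and 1, 1, 1, 0 and 1 were lower. The WNT co-receptor LRP5 rose in TG1_1, TG3_2, TG3_5 and TG3_6 by 1.87, 1.69, 1.80 and 2.72 on the log2 scale and fell by 0.76 in TG2_2. LGR4, a paralog of LGR5 that is expressed in both lines, fell by 0.63, 0.77 and 1.31 in TG1_1, TG3_2 and TG3_6. ROR1, a receptor for noncanonical WNT ligands, was called higher in all 5 clones from only 2 to 4 counts in WT. It was at 0.17 CPM in WT and passed the filter through the clones where it was high. Its calls are therefore no support for a difference. In LoVo 5 of 20 were higher, with the co-receptor PTK7 at 2.77, and 9 were lower, with LGR4 at -3.49 (74.8 ± 2.71 TPM against 6.21 ± 1.43) and LRP5 at -0.65.

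Of the genes for ligand secretion, 2 were tested. WLS, which carries WNT ligands to the cell surface, was higher in TG1_1 (0.77), TG3_2 (0.67) and TG3_6 (0.96) and was at -0.03 in LoVo. PORCN, which attaches the lipid that NOTUM removes, was called lower in LoVo (-0.89) and in no clone.

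The secreted and membrane inhibitors outside the members held 11 genes tested in MDST8, of which 1, 1, 1, 3 and 4 were higher and 3, 2, 2, 2 and 2 lower. DKK1, a secreted antagonist of LRP5 and LRP6, was at 282.5 to 293 CPM in WT and fell in TG1_1, TG3_2, TG3_5 and TG3_6 (log2 fold changes -1.498, -1.59, -0.85 and -1.97). In TG2_2 its log2 fold change was -0.50. TRABD2A, a protease that inactivates WNT ligands, was called lower by 0.72, 0.98 and 1.38 in TG1_1, TG2_2 and TG3_2. Its log2 fold change was 0.31 in TG3_5 and -0.01 in TG3_6. TRABD2A was at 1.77 CPM in WT, 0.89 CPM in TG2_2 and 0.68 CPM in TG3_2 and passed the filter through the groups where it was higher. The TRABD2A calls in the clones are therefore no support for a difference. NKD2, the paralog of NKD1, was called higher in all 5 clones (1.37, 0.71, 1.64, 1.14 and 2.63) and lower in LoVo (-0.998), and is named after its values were seen. In LoVo DKK1 was 6.98-fold higher (63.7 to 73.3 against 470.4 to 476 CPM). There, 4 of 8 were higher and 4 lower, among them TRABD2A (-2.89), DACT1 (-3.71), which binds Dishevelled, and DKK3 (-4.52, from 49 to 74 counts to 2 to 3). DKK3 was at 0.15 CPM under the label TWIST1 shRNA and passed the filter only through libraries labelled shRNA control. The DKK3 call is therefore no support for a difference.

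Of 15 other beta-catenin targets tested in MDST8, 6, 2, 5, 4 and 5 were higher and 0, 1, 0, 1 and 1 lower. BMP4, a growth factor, rose by 1.30, 0.77, 0.76 and 1.49 in TG1_1, TG3_2, TG3_5 and TG3_6 and was at 0.53 in TG2_2. PROX1 and SOX4 were called higher in every clone. EPHB3 was called lower in TG2_2 and TG3_5, and MYC in TG3_6. In LoVo 5 of 17 were higher (FGF18, CD44, PHLDA1, CCND1 and EPHB3) and 8 lower. Among the lower genes were BMP4 (-3.12), the protease gene MMP7 (-5.18), ZNF703 (-3.87) and CDX1 (-2.80), an intestinal transcription factor that is also one of the epithelial markers. MMP7 was at 0.50 CPM under the label TWIST1 shRNA and passed the filter only through libraries labelled shRNA control. The MMP7 call is therefore no support for a difference.

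Of 8 further intestinal stem cell genes tested in MDST8, 2, 1, 2, 1 and 1 were higher and 2 were lower in each clone. The ion transporter gene SLC12A2 was called higher in all 5 clones (0.60 to 0.96). Called lower were CDCA7 in all 5 clones, RGMB in TG1_1, TG3_2, TG3_5 and TG3_6, and LRIG1 in TG2_2. In LoVo 2 of 10 were higher (ZBTB38 and RGMB) and 5 lower. Among the lower genes were TNFRSF19 (-2.13), which is also in the list of other targets, CDK6 (-2.07), PROM1 (-1.16) and SLC12A2 (-1.12).

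**Figure D3:**
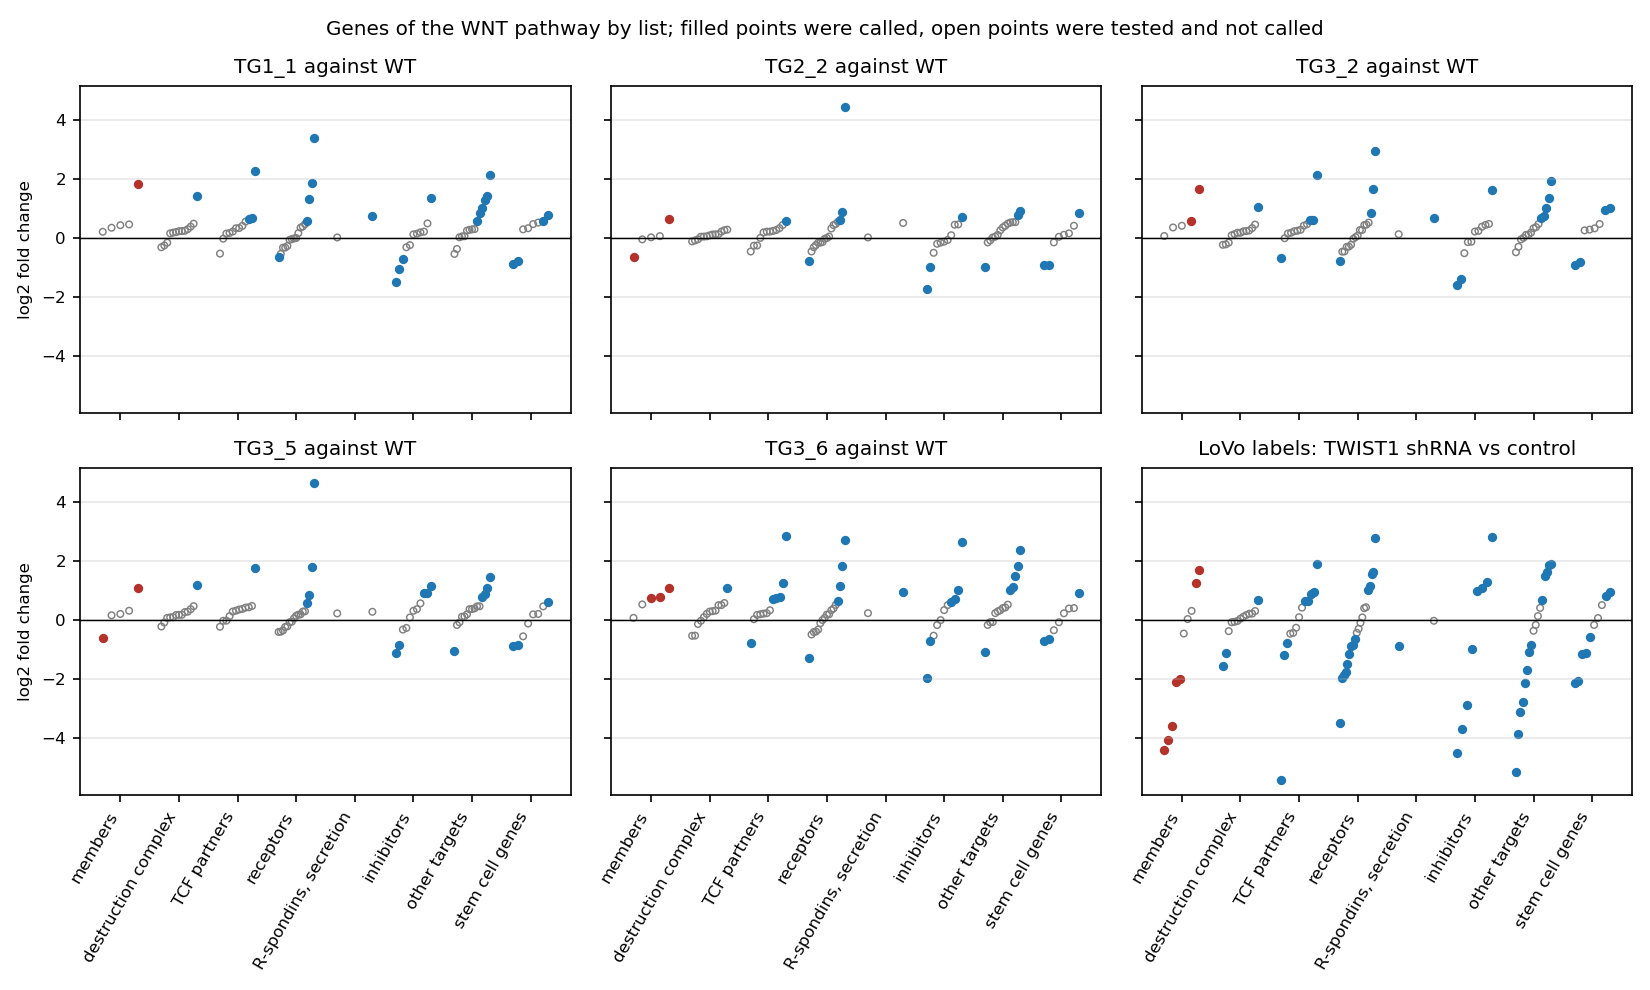
Log2 fold change of the tested genes of the 8 pathway lists (1 point per gene, called genes filled) in the 5 clone comparisons and under the LoVo labels. The members' median lies at 0.03 to 0.73 in the clones and at -1.24 in LoVo.

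The TWIST1 peak lists were read at the 5' ends of the members. Each list comes from 1 ChIP library without replicates, peaks were kept by the authors at an unadjusted p-value below 0.05, and LoVo libraries labelled shRNA control held no TWIST1 counts. Within 3000 bp of the 5' end, on either side, 7 of 10 members had a listed peak in MDST8 (SP5, LEF1, TCF7, LGR5, NKD1, NOTUM and ZNRF3), beside 76.5% of all genes tested. In LoVo 7 of 10 had such a peak (SP5, LEF1, TCF7, LGR5, RNF43, NOTUM and ZNRF3), beside 58.2% of all genes tested. AXIN2 and ASCL2 had none in this window in either list. At a q-value of at most 0.05 no member kept a peak, as against 0.642% of genes tested in MDST8 and 0.35% in LoVo.

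In MDST8, the member peak with the smallest p-value lay upstream of SP5, at chr2:170712607-170712919, with its summit at -2614 bp from the start (a fold enrichment of 3.49, with a p-value of 6.23e-05 and a q-value of 0.279 as the peak caller gave them). A LEF1 peak had its summit at -137 bp (fold 2.64) and a ZNRF3 peak at 93 bp from the start (fold 2.46). NKD1, the member called in all 5 clones, had 3 peaks in the window, with folds of 2.29 to 2.62. In LoVo the smallest p-value belonged to a peak over an exon of RNF43, at chr17:58416977-58417545 (fold 3.31, with a p-value of 3.23e-05 and a q-value of 0.22 from the peak caller). LGR5 had a peak at the same place in both lists, within an intron, with summits 738 bp (MDST8, fold 2.29) and 786 bp (LoVo, fold 1.87) after the start, although its mRNA was near 0 in MDST8.

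The summit of the SP5 upstream peak and the 60 bases on either side, chr2:170712663-170712783 (plus strand, hg38), are shown because this is the strongest member peak in MDST8.
SP5 upstream peak: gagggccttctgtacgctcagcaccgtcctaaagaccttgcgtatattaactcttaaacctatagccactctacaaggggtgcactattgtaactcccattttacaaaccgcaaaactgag
These 121 bases hold 0 matches to CATCTG on either strand and 0 to the general E-box CANNTG, so none is in capitals.

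**Figure D4:**
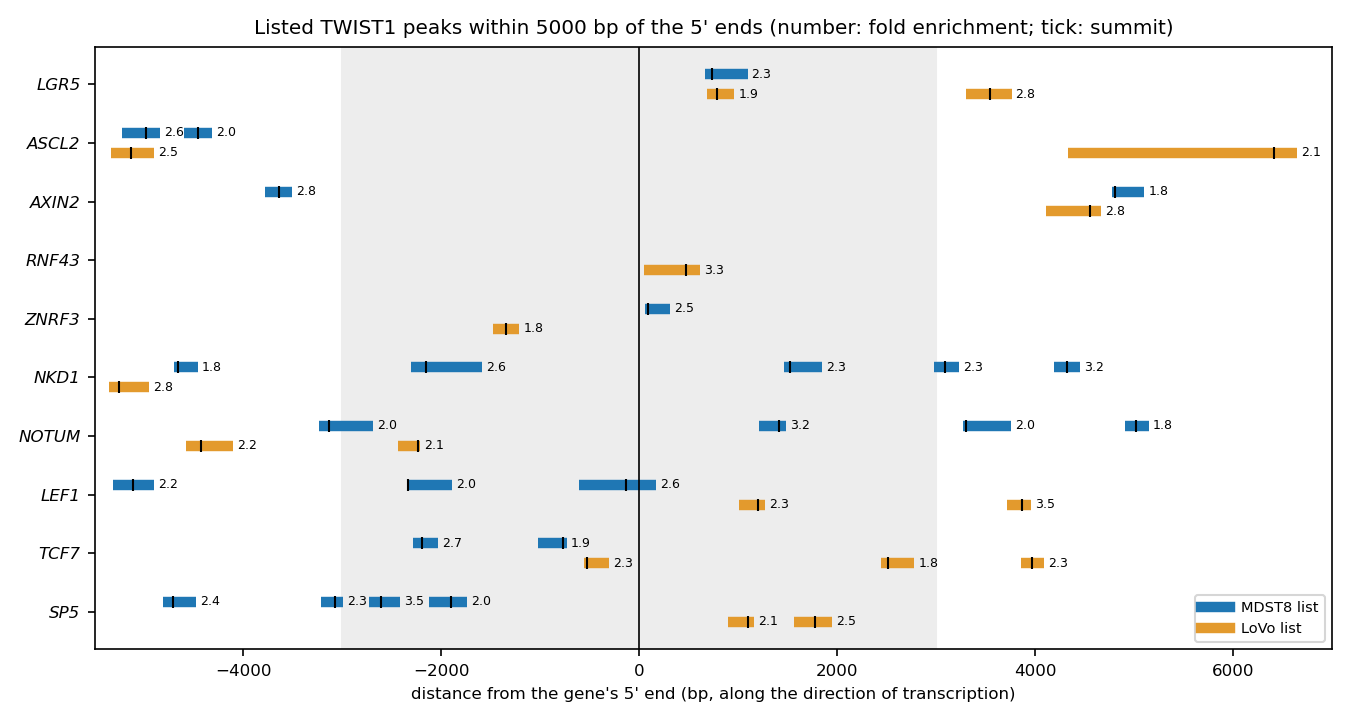
Listed TWIST1 peaks within 5000 bp of the 5' end of each member in the MDST8 and LoVo lists, by distance from the 5' end in bp, with a tick at each summit, the fold enrichment as a number and the window of 3000 bp on either side in grey. 7 members in each list have a peak in the grey window, with none for AXIN2 or ASCL2.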

How the data were processed

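RNA-seq was read from 24 libraries and TWIST1 ChIP-seq from 1 peak list per line, grouped by the labels alone. The authors deposited raw counts per gene without normalization, from Trim Galore 0.6.6, HISAT2 2.1.0, SAMtools 1.6 and featureCounts 2.0.0 on hg38 and GENCODE v43, without using strand. For each peak the authors deposited MACS2 values, namely a fold enrichment (a ratio), a p-value and a q-value as -log10, and an integer score. Exon lengths and summit offsets in bp are other deposited values, and exon lengths gave the TPM. The genome build of the ChIP-seq is not given in the sources used here, and positions were read as hg38. Nor is it given whether the input libraries were the control in MACS2, so the background behind each fold enrichment, p-value and q-value is not known.

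No column of values was left unmatched (0). Genes whose geometric mean over the libraries of a fit reached 1 RPM (offset 1) were kept: 13706 in MDST8, 14270 in LoVo and 14185 over both lines. edgeR 4.0.16 (R 4.3.3) with TMM factors and quasi-likelihood F tests was used, with Benjamini-Hochberg adjustment over all of these genes. A gene was called past an absolute log2 fold change of 0.58 with an adjusted p below 0.05, and F tests among clones and differences of effects by the adjusted p alone. CPM are TMM-scaled within each line. The procedure was tested on simulated data.

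The alternatives were DESeq2 1.42.0, limma 3.58.1 (with voom, or on log2(count + 1)), other scaling factors and filters, a replicate block, each library left out, fits limited to the groups compared, and other peak windows and thresholds. The members, the lists and the tests were chosen with earlier results of these data known. Of each pathway list, up to 4 genes with the largest absolute change among those called were named. Members of small counts and other genes outside that rule were named after their values were seen.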

Additional observations from a re-analysis of the deposited data

Results flagged for a closer look

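For 4 members the effect under the LoVo labels differed from the mean effect in the 5 MDST8 clones, by an edgeR contrast in the fit of all 24 libraries. The difference in log2 fold change, LoVo minus MDST8, was -4.03 for AXIN2, -4.26 for LEF1, -1.26 for NKD1 and 0.87 for TCF7. By the same test 73.6% of all genes tested differed, and the TWIST1 counts in LoVo run against the labels, so the direction in LoVo follows the labels only. The part of line, method of perturbation and labelling in these differences cannot be told apart.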

How the results depend on the processing

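Member calls depended most on the fold threshold. By the adjusted p alone, 5 members were called in TG1_1, 4 in TG3_2 and 5 in TG3_5 (1, 2 and 2 with the threshold), and 8684, 7706, 8366, 8386 and 9480 of all genes were called in TG1_1, TG2_2, TG3_2, TG3_5 and TG3_6 (2670, 2014, 2326, 2535 and 3704 with it). With a geometric mean without an offset, 4 members were called between the lines (7 with it), because LGR5, RNF43 and NOTUM were then not tested, and with no filter 13894 of all genes were called there (9158 with it). Leaving out each library gave 1 to 2 calls in TG3_2, 7 to 8 in LoVo and 6 to 7 between the lines, and constant counts elsewhere (1 in TG1_1, 2 in TG2_2 and TG3_5, 3 in TG3_6, 5 among the clones and among the TG3 clones, and 4 differences of effect). Near 0, NKD1 in LoVo reversed with no filter (-0.029), and ZNRF3 between the lines with limma on log2(count + 1) (-0.139) and in a fit of only the groups compared (-0.008). The ZNRF3 difference of effects reversed with upper-quartile factors (0.061) and ranged from -0.098 to 0.013 with each library left out. The causes were not tested.

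Of 1298 values of single members and alternatives, 1279 kept their direction and their side of the thresholds, 13 passed them anew, 1 no longer did and 5 reversed. limma on log2(count + 1) moved the share of called genes that were higher from 64.1% to 74.3% in TG3_2 and from 56.7% to 71.0% in TG3_6, with a median over all genes of 0.13 in TG3_6 and -0.26 between the lines. With upper-quartile factors it was 0.10 in LoVo and -0.12 between the lines. With the replicate letter as a block, 1, 2, 2, 2 and 3 members were called in the clones and 5 in both F tests, as without the block. Libraries of the same letter had a correlation of deviations of -0.146 to 0.12, above 0.1 in 3 of 45 pairs, so the letters do not pair the samples.

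For peaks, a window of 1000 bp left 4 members in each list (7 with 3000 bp), beside 53.4% of all genes tested in MDST8 and 32.4% in LoVo. A window of 5000 bp gave 9 members in MDST8 and 10 in LoVo, beside 86.3% and 71.8% of all genes tested. With the start of every transcript in place of the 5' end, 9 members had a peak in each list, AXIN2 among them. The share over all genes was not computed for that setting. Peaks with p of at most 0.001 left 2 in MDST8 (SP5 and NOTUM) and 1 in LoVo (RNF43), beside 28.3% and 18.8% of all genes, and q of at most 0.05 left 0 in both. Depth limits RNF43, NOTUM, LGR5 and ASCL2 in MDST8 (0 to 3 counts) and SP5 (0 to 20 counts). With no filter, RNF43, NOTUM and LGR5 were tested and not called in any clone. SP5 was then called lower in TG3_5 (log2 fold change -5.08, adjusted p = 0.00177 in edgeR) and higher in TG3_6 (1.97, adjusted p = 0.00282). These SP5 calls rest on 0 to 20 counts per library.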

Other observations

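Further marker lists gave the following summed levels. The 8 fibroblast markers summed to 361 to 369 TPM in WT MDST8 and 675 to 744 TPM in TG1_1, against 2.65 to 3.44 TPM in LoVo libraries labelled shRNA control and 21.5 to 27.8 TPM in those labelled TWIST1 shRNA. The 6 mesothelial markers were MSLN, UPK3B, CALB2, WT1, KRT19 and LRRN4. They summed to 3.01 to 19.7 TPM in MDST8, to 997 to 1090 TPM in LoVo libraries labelled shRNA control and to 1230 to 1760 TPM in those labelled TWIST1 shRNA. A sum does not show which marker makes it up, and whether mesothelial cells were present was not tested. The 6 blood cell markers summed to at most 2.39 TPM in any library.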
